A study of Mus musculus with 4 samples.

Results

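The promoters of interleukins and of interleukin receptors were examined for dimethylation of histone H3 at lysine 9 (H3K9me2) in mouse aortic vascular smooth muscle cells (VSMCs). All promoters whose gene symbol begins with Il and a digit were taken, which gave 82 of the 26354 promoters listed. Of these, 38 belong to ligands and 39 to receptor chains, which carry an r after the number in the symbol. The other 5 were kept apart: the receptor antagonists Il1rn and Il1f5, the IL-18 binding protein Il18bp, the shared signal transducer Il6st and the amino acid oxidase Il4i1.

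VSMCs came from aortas of male C57Bl/6J mice, whose age and number per experiment were not given in the sources used here. The medial layer was fixed directly after the adventitia and the endothelium had been stripped by hand, with no culture and no stimulation, so the profile is of unstimulated tissue. Chromatin from 2 independent experiments, v102 and v134, gave 1 H3K9me2 ChIP library and 1 input library each, the input being chromatin sequenced without immunoprecipitation. The study asked whether H3K9me2 lies at promoters of inflammation-responsive genes in VSMCs, Il6 among them.

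Interleukins are secreted proteins through which leukocytes, stromal cells and vessel wall cells signal to each other, and many are induced upon stimulation. IL-1 family ligands signal through MyD88 and IRAK kinases to NF-kB and AP-1, and most other interleukins act through JAK kinases and STAT factors. H3K9me2, deposited mainly by the methyltransferases EHMT2 and EHMT1, is a repressive mark of facultative heterochromatin, and VSMCs respond to IL-1 by secreting IL-6.

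RefSeq promoter sequences for GRCm38.p6, each 300 bases around a transcription start site, matched 62 of the 82 members. Il6 and Il1a are shown because the study concerns NF-kB and AP-1, and capitals mark the letters GGGNNTTTCC, an NF-kB (kB) motif, and TGANTCA, an AP-1 motif, searched on both strands. Il6 lies on the plus strand (chr5:30012864-30013163) and Il1a on the minus strand (chr2:129309923-129310222).
Il6: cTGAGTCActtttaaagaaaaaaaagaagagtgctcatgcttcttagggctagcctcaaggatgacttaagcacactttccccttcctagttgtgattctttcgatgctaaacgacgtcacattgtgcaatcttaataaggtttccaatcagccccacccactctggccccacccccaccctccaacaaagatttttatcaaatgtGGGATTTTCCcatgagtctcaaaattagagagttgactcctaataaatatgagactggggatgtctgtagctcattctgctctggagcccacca
Il1a: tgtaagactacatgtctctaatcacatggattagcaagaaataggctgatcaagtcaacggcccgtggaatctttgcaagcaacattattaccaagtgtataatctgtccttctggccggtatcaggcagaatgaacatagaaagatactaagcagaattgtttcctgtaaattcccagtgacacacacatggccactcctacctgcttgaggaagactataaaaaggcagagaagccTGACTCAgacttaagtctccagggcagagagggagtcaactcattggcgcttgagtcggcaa
The kB match of Il6 began 44 bases upstream of the start site and its AP-1 match 249 bases upstream, and these matches do not overlap. The AP-1 match of Il1a began 12 bases upstream. The kB letters occurred in 5 of the 62 member promoters (8.06%) and in 1.63% of 32851 RefSeq promoters of the same length. The AP-1 letters occurred in 12 members (19.4%) and in 7.81% of all, and the STAT letters TTCNNNGAA in 7 members (11.3%) and in 8.30% of all.

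The next promoters are shown with CG dinucleotides in capitals, as examples of high and low H3K9me2 and of few and many CG. Il1f8 (plus strand, chr2:24152922-24153221), Il1b (minus strand, chr2:129371090-129371389) and Il23r (minus strand, chr6:67491806-67492105) had high H3K9me2. Il20ra (plus strand, chr10:19712337-19712636) had almost no H3K9me2 reads, and Il6ra (minus strand, chr3:89913147-89913446), the CG-rich example, was not called.
Il1f8: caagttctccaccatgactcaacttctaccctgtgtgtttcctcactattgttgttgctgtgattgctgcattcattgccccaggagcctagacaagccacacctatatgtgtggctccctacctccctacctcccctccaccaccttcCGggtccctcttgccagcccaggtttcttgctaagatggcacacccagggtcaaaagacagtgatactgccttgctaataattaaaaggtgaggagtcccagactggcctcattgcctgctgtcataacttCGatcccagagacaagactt
Il1b: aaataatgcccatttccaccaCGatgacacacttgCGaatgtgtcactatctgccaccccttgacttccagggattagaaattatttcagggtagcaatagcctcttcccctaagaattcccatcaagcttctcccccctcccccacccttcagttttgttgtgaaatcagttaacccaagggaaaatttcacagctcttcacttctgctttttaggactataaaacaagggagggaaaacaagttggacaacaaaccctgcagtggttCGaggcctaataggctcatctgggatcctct
Il23r: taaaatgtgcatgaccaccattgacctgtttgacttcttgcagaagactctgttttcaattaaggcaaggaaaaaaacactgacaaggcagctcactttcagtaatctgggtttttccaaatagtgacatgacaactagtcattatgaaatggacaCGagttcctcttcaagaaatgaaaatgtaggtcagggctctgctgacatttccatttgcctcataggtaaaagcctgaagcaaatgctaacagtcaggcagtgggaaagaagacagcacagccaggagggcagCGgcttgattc
Il20ra: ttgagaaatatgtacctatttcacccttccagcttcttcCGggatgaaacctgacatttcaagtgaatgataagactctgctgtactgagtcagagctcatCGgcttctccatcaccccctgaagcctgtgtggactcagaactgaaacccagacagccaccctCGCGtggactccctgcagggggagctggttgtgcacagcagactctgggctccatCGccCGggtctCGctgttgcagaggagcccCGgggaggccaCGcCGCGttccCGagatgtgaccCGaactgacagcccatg
Il6ra: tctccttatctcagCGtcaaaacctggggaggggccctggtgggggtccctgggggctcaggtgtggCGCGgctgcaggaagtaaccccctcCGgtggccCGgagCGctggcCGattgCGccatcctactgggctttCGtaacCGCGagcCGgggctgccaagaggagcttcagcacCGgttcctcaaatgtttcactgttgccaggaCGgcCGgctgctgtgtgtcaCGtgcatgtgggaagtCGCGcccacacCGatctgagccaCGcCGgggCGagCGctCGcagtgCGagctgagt
These windows held 2, 3, 2, 13 and 25 CG dinucleotides. The median over the 32851 RefSeq promoters was 7, over the 62 members 4, over 26 ligands 3 and over 31 receptor chains 6. Each member entered with 1 start, while the RefSeq promoters were not reduced to 1 per gene. By H3K9me2 the median was 3 over 13 members called above input, 5.5 over 6 called below and 5 over 43 not called. The numbers ran from 1 to 5 above input and from 3 to 16 below, and Il6, which was not called, held 3. Both ends of the range below input come from distant starts. The sequences of Il16 (3 CG), Il1r2 (16) and Il4i1 (3) start 10187, 12014 and 19901 bases from the GENCODE start. The median and range below input may therefore not describe the windows in which reads were counted.

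The deposited values are the reads counted from 1 kb before to 1 kb after the start site, and the H3K9me2/input ratio, which is summed ChIP reads over summed input reads with no scaling for library size. Over all promoters the ChIP libraries held 162233 (v102) and 229605 (v134) reads and the input libraries 619100 and 1084349. The median member had 5 ChIP reads in each experiment and 19 and 37 input reads, so a single promoter rests on few reads. Ratios are therefore given with a 95% Wilson interval, which covers counting error only. A log2 ratio was also computed in each experiment after scaling to the library totals, and is given as mean ± SD of the 2 experiments. A promoter was called above or below input when its ChIP counts differed from input counts in edgeR's quasi-likelihood test at an adjusted p under 0.05, so each call is relative to the normalization over all promoters. The median promoter had a fitted log2 fold change of -0.35, and of -0.50 with library totals in place of TMM.

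Interleukin promoters ran from -2.77 to 2.14 in log2 ratio, within the range of all promoters (-6.43 to 3.55), and their median was close to that of all promoters. Of 82 members, 15 (18.3%) were called above input against 18.6% of all promoters, and 9 (11.0%) below against 17.0%. With the experiments as a replicate block, 11 were above against 15.8% of all promoters, and 3 below against 8.30%. The median log2 ratio was -0.26 for the members and -0.31 for all promoters. In the deposited ratio, 22 members lay in the upper quartile, which starts at 0.343 and holds 25.0% of promoters, and 13 were in the upper quartile of the log2 ratio in both experiments (17.9% of all promoters). The log2 ratios of v102 and v134 had a Spearman rho of 0.62 across the 82 members, compared with 0.69 across all promoters. Each experiment's ratio comes from its own ChIP and input library, and promoters are not independent replicates.

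**Figure D1:**
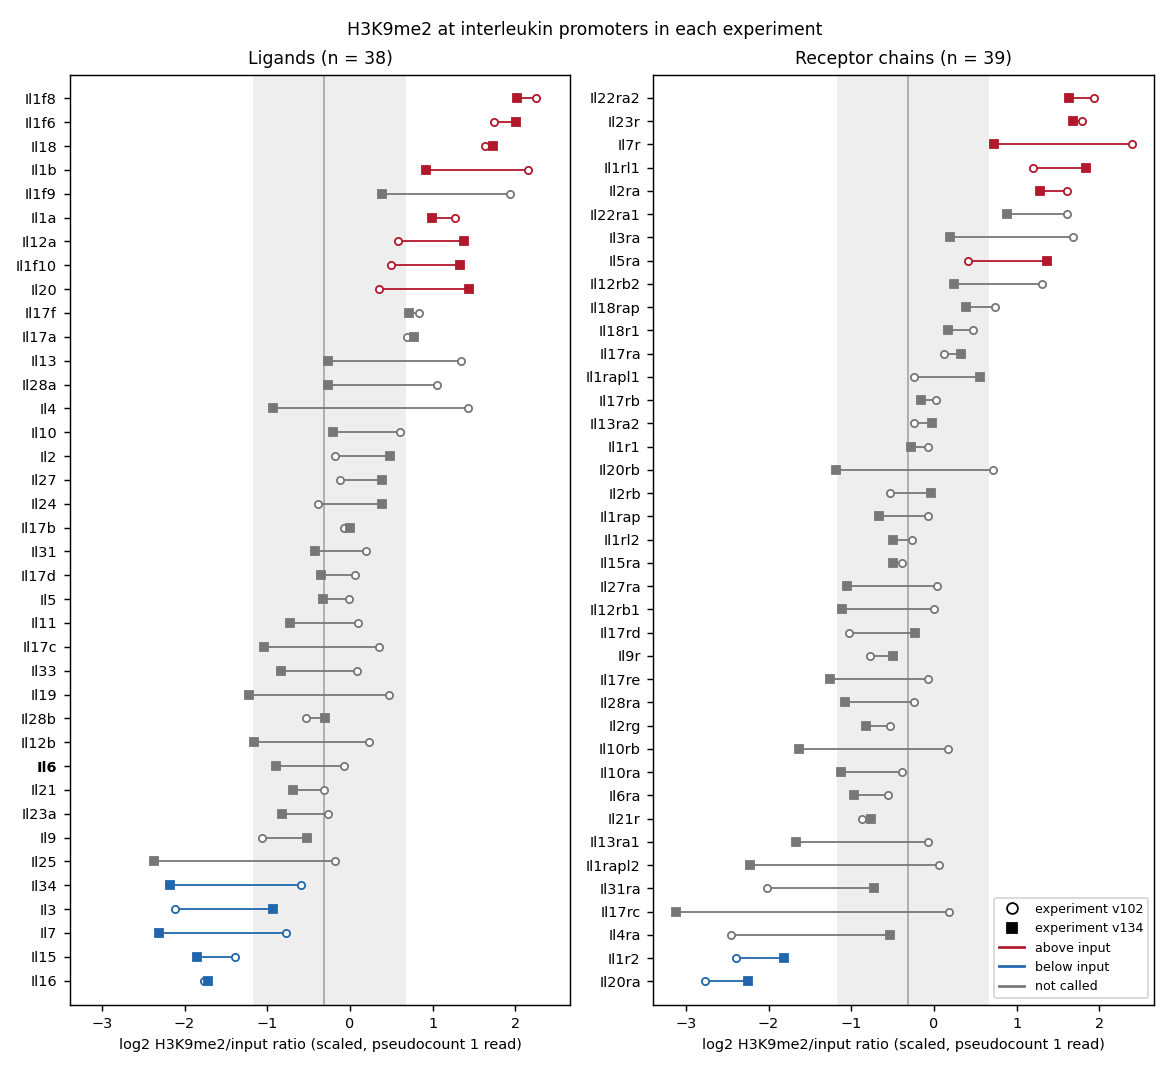
Each row is 1 promoter and the x axis gives its log2 H3K9me2/input ratio, scaled to library totals with a pseudocount of 1 read, in experiment v102 (open circles) and v134 (squares), with red for promoters called above input and blue for those called below. The grey band runs from the lower to the upper quartile of all promoters and the vertical line is their median, -0.31. Rows are ordered by the mean of the 2 experiments, which for ligands ran from -1.74 (Il16) to 2.14 (Il1f8) and for receptor chains from -2.51 (Il20ra) to 1.78 (Il22ra2), and both points of Il6 lie in the band.

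Ligands and receptor chains overlapped over most of their range. Above input were 8 of 38 ligands (21.1%) and 6 of 39 receptor chains (15.4%), beside 18.6% of all promoters. Below input were 5 ligands (13.2%) and 2 receptor chains (5.13%), beside 17.0% of all promoters. The block left 6 ligands and 4 receptor chains above, and none of the ligands and 2 receptor chains below. The shares of all promoters with the block were 15.8% and 8.30%. Without the input library of v134, 2 ligands were above and no promoter of either class was below. Without the input of v102, 3 ligands were above and again none of either class was below, and without the ChIP library of v134, 4 ligands were above and none below. In each of these fits fewer of all promoters were called too, in both directions. With a library left out, its group keeps 1 library, so the spread comes from the other group alone. The common dispersion was 0.0192 with all libraries, 0.0140 without either ChIP library and 0.0585 and 0.0594 without the inputs of v102 and v134. Of the 15 calls above, 7 were kept under library totals, DESeq2, the block and each library left out. These were Il1f8, Il1f6, Il1rn, Il22ra2, Il23r, Il1rl1 and Il2ra.

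Pooled over each class, ligands held 541 ChIP and 2165 input reads (ratio 0.250, interval 0.227 to 0.275) and receptor chains 499 and 2137 (0.234, interval 0.212 to 0.257). The ligand ratio was 1.07 times that of receptor chains (1.07 in v102 and 1.07 in v134), with a 95% counting interval of 0.935 to 1.23 that includes equality. The median log2 ratio was -0.07 for ligands and -0.38 for receptor chains, a difference of 0.31, and the difference of medians was 0.21 within v102 and 0.19 within v134. Members are not replicates, and no test of this difference was made. The pooled comparison changed direction without 1 family: with the IL-1 family left out, the ratio of ligands was 0.764 times that of receptor chains, while the difference of medians was 0.29. Among the 39 members in which each input library held at least 20 reads, the pooled ratio turned to 0.939 and the median difference to 0.05.

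Il6 (chr5:30013114-30019981, plus strand), the pro-inflammatory cytokine that the study followed, was not called. It had 4 (v102) and 3 (v134) ChIP reads against 19 and 34 input reads. The ratio was 0.132 (interval 0.0612 to 0.285), below the median promoter's 0.162, and the interval holds that median. Its log2 ratio of -0.48 ± 0.58 (SD, n = 2) placed Il6 at percentile 45.2 of all promoters and 53rd of the 82 members.

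Il6 also did not stand apart from either class. Among the other 37 ligands 28 had a higher log2 ratio and 9 a lower one, and among the 39 receptor chains 21 were higher and 18 lower. The ratio interval lay wholly above that of Il6 at 7 ligands and 5 receptor chains, and at no ligand or receptor chain did it lie wholly below. The latter says little at this depth. Even Il4i1, with 0 ChIP reads, had an upper limit of 0.0674, over the lower limit of Il6, 0.0612. Relative to the pooled other ligands the ratio of Il6 was 0.522 (0.657 in v102 and 0.405 in v134), and relative to the pooled receptor chains 0.566 (0.708 and 0.441), and its interval includes both pooled ratios. The fitted log2 fold change was -0.65 (SE 0.65), adjusted p = 0.434, and it ranged from -0.98 to -0.20 when single libraries were left out. No difference of Il6 from input, after normalization, was thus detectable at this depth. The median promoter had a fitted log2 fold change of -0.35, and Il6 was not tested against it. By ChIP-qPCR the study reported H3K9me2 enrichment at the Il6 promoter in aortic medial tissue of vehicle-treated mice, and none in cultured mouse VSMCs. That assay was read against control loci and IgG, not against all promoters.

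The receptor of IL-6 had similarly few reads. Il6ra, the IL-6 binding chain, had 4 and 3 ChIP reads against 27 and 36 input reads (ratio 0.111, interval 0.0518 to 0.238). Il6st, which encodes the transducer gp130, had 5 and 8 against 33 and 53 (0.151, interval 0.0850 to 0.269). Neither was called (adjusted p = 0.233 and 0.452), and their intervals overlapped that of Il6.

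The IL-1 family held 8 of the 15 promoters above input. Of its 20 members 8 were above and 2 below input, beside 18.6% and 17.0% of all promoters. The block kept all 8 above and 1 below, beside 15.8% and 8.30% of all promoters. Of those above, Il1a and Il1f10 were lost with library totals, and Il1a, Il1b and Il1f10 by DESeq2. Only Il1f8, Il1f6, Il1rn and Il1rl1 were kept there and with each library left out. Of the 8 ligands 6 were above and none below, with a pooled ratio of 0.546 (interval 0.464 to 0.642), while of 9 receptor chains 1 was above and 1 below, with a pooled ratio of 0.225 (interval 0.183 to 0.277). The difference held in each experiment, at 0.700 against 0.267 in v102 and 0.475 against 0.204 in v134. The windows of these ligands were GC-poor, from 42.3 to 46.8%, and 28.7% of the 3328 promoters in that GC range were called above. After the GC trend of all promoters was removed, the median percentile was 84.1 for the IL-1 ligands and 36.9 for the IL-1 receptor chains.

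On chromosome 2, the start sites of Il1f8, Il1f9, Il1f6, Il1f5, Il1f10 and Il1rn lay within 184 kb and had ratios from 0.345 to 0.963. Pooled, they reached 0.704 in v102 and 0.533 in v134. Il1f8 (IL-36 beta, chr2:24153161-24160519), an agonist of the IL-36 receptor, had 9 and 17 ChIP reads against 7 and 20 input reads, the highest ratio among the members (0.963, interval 0.566 to 1.64). Its log2 ratio was 2.14 ± 0.17 (SD, n = 2), with an adjusted p of 0.000134.

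Il1f6 (IL-36 alpha) had 21 and 39 ChIP reads against 24 and 46 input reads, with a ratio of 0.857 (interval 0.608 to 1.21) and the lowest adjusted p of all members (2.91e-07). Both experiments placed it high, at 1.75 and 2.01 on the log2 scale. Il1rn, the secreted antagonist that blocks the IL-1 receptor, had 15 and 28 against 24 and 43 (0.642, interval 0.439 to 0.939, adjusted p = 0.000251). Il1f10 (IL-38) had 9 and 23 against 26 and 44 (0.457, interval 0.302 to 0.693, adjusted p = 0.0221). The other genes of the cluster were not called: Il1f9 (IL-36 gamma) had 12 and 12 against 12 and 46 (0.414, adjusted p = 0.0535) and Il1f5 (the IL-36 receptor antagonist) 10 and 10 against 15 and 43 (0.345, adjusted p = 0.187).

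Il1a and Il1b, the agonists of the IL-1 receptor, lie 61.2 kb apart on the same chromosome and were both above input. Il1b (chr2:129364570-129371139, minus strand) had 13 and 11 ChIP reads against 11 and 29 input reads (ratio 0.600, interval 0.364 to 0.990, log2 fold change 1.55, SE 0.48, adjusted p = 0.00630). Il1a, the ligand with which the study stimulated VSMCs, had 11 and 15 against 18 and 37 (0.473, interval 0.298 to 0.751, log2 fold change 1.19, SE 0.44, adjusted p = 0.0239). For Il1b the log2 ratio was 2.15 in v102 and 0.92 in v134, and its call was lost by DESeq2, without the ChIP library of v102 and without either input. For Il1a it was 1.27 and 0.99, and its call was lost by DESeq2, with library totals, without the ChIP library of v134 and without either input.

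Il18, an inflammasome-processed cytokine on chromosome 9, had 12 and 13 ChIP reads against 15 and 19 input reads (0.735, interval 0.441 to 1.23, adjusted p = 0.00154). Its window shares bases with that of the neighbouring Bco2, so reads there belong to both. The ligand of ST2, Il33, completed the family's ligands and was the lowest of them, with a ratio of 0.138.

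The IL-1 receptor genes lie in a second cluster, on chromosome 1, whose 6 start sites span 441 kb and whose ratios differed from 0.0294 to 0.679. Il1rl1, which encodes the IL-33 receptor ST2, had 14 and 24 ChIP reads against 24 and 32 input reads (0.679, interval 0.451 to 1.02, adjusted p = 0.000306). Il1r2, the decoy receptor that binds IL-1 without signalling, had 0 and 2 against 19 and 49 (0.0294, interval 0.00793 to 0.109, adjusted p = 0.00676). Their intervals did not overlap.

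Between them on the chromosome, Il1r1, the signalling IL-1 receptor, had 4 and 6 ChIP reads against 19 and 39 input reads (0.172, interval 0.0892 to 0.333) and was not called (adjusted p = 0.736). Its log2 ratio of -0.17 ± 0.15 (SD, n = 2) put it at percentile 54.1. Il1rl2 (the IL-36 receptor), Il18r1 and Il18rap (both chains of the IL-18 receptor) had ratios of 0.148, 0.258 and 0.30 and were not called either. The shared accessory chain Il1rap, on chromosome 16, had 5 and 5 against 23 and 44 (0.149, interval 0.0777 to 0.287, adjusted p = 0.514). Both chains of the signalling IL-1 receptor were thus near the median promoter, while the genes of both agonists were above input.

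**Figure D2:**
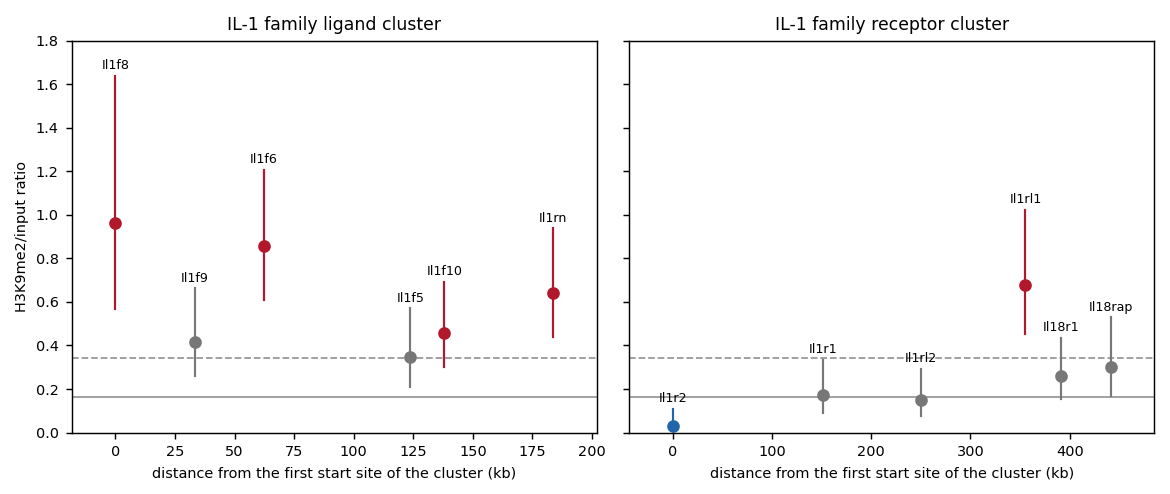
The x axis gives the distance in kb from the first start site of each cluster and the y axis the H3K9me2/input ratio with its 95% Wilson interval, with red for promoters called above input, blue for below and grey for not called. Horizontal lines mark the median (solid, 0.162) and the 75th percentile (dashed, 0.343) of all promoters. All 6 promoters of the ligand cluster lie above the dashed line, and in the receptor cluster 1 of 6, Il1rl1, does.

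The IL-10 and lambda interferon family held neighbours with very different ratios. Of 13 members 2 were above input and 1 below, beside 18.6% and 17.0% of all promoters. Il22ra2, a soluble decoy for IL-22, had 16 and 20 ChIP reads against 16 and 31 input reads (0.766, interval 0.498 to 1.18, log2 ratio 1.78 ± 0.21 (SD, n = 2), adjusted p = 7.15e-05). Il20ra, a receptor chain for IL-20 and related cytokines, starts 90.6 kb away on chromosome 10 and had 0 and 1 against 25 and 44 (0.0145, interval 0.00253 to 0.0829, log2 ratio -2.51 ± 0.36 (SD, n = 2), adjusted p = 0.00139). Both experiments gave this order. The Il22ra2 window had 43.6% GC and the Il20ra window 47.4%, and after the GC trend was removed they lay at percentiles 91.0 and 0.679.

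The ligands Il24, Il20, Il19 and Il10 lie within 132 kb on chromosome 1. Il20 was above input, with 5 and 18 ChIP reads against 17 and 32 input reads (0.469, interval 0.287 to 0.767, adjusted p = 0.0386, and 0.0995 with the block). The others had ratios of 0.220 (Il24), 0.156 (Il19) and 0.210 (Il10, the anti-inflammatory cytokine) and were not called. The near-identical lambda interferon genes Il28a and Il28b, between which reads could be shared, had ratios of 0.269 and 0.132 and were not called. Il22ra1, the signalling IL-22 receptor, missed the threshold (0.484, interval 0.264 to 0.888, adjusted p = 0.0791), and lay at percentile 97.5 once the GC trend was removed. Il22ra1 was picked after its value was seen.

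In the IL-6 and IL-12 family, 2 of 14 members were above and none below input, beside 18.6% and 17.0% of all promoters. Il23r, the IL-23 specific receptor chain of type 17 lymphocytes (chr6, minus strand), had 18 and 37 ChIP reads against 20 and 55 input reads (0.733, interval 0.519 to 1.04). Its log2 ratio of 1.73 ± 0.08 (SD, n = 2) differed little between experiments (fitted log2 fold change 1.83, SE 0.36, adjusted p = 5.32e-06). Il12rb2, the IL-12 chain whose start lies 116 kb from that of Il23r, had 12 and 7 against 19 and 31 (0.380, interval 0.225 to 0.641, adjusted p = 0.144). The p35 subunit gene Il12a, with 8 and 15 against 22 and 28 (0.460, interval 0.282 to 0.750), was above input (adjusted p = 0.0453, and 0.0908 with the block). The family's 12 uncalled members, Il6 and its receptor chains among them, had ratios from 0.0735 to 0.380.

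Among genes of cytokines that use the common gamma chain and their receptors, 2 of 17 were above and 2 below. Over all promoters the shares were 18.6% and 17.0%. Il2ra (CD25), the inducible high-affinity IL-2 receptor chain, had 19 and 30 ChIP reads against 24 and 59 input reads (0.590, interval 0.416 to 0.839, adjusted p = 0.000252). Its neighbour Il15ra, which presents IL-15 and starts 62.5 kb away, had 2 and 5 against 14 and 39 (0.132, interval 0.0612 to 0.285, adjusted p = 0.447). Il7r, the IL-7 receptor of lymphocytes, had 10 and 12 against 7 and 36 (0.512, interval 0.308 to 0.851, adjusted p = 0.0214, and 0.0571 with the block). The log2 ratio of Il7r was 2.39 in v102 and 0.73 in v134.

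The type 2 cytokine cluster on chromosome 11, with Il4, Il13 and Il5, differed between the experiments, mainly at Il4 and Il13. Pooled over the cluster the ratio was 0.453 in v102 and 0.133 in v134, beside 0.262 and 0.212 over all promoters. The log2 ratios in v102 and v134 were 1.43 and -0.93 at Il4, 1.35 and -0.26 at Il13, and -0.02 and -0.32 at Il5. For Il4 the ChIP reads were 11 and 4 against 16 and 44 input reads, for Il13 7 and 5 against 11 and 33, and for Il5 6 and 9 against 26 and 58. None of the cluster was called. Il5ra, the eosinophil IL-5 receptor, was above input with 6 and 17 against 19 and 32 (0.451, interval 0.277 to 0.734, adjusted p = 0.0483, and 0.103 with the block). Il3ra, the IL-3 binding chain, had 15 and 7 against 18 and 32 (0.440, interval 0.268 to 0.723, adjusted p = 0.0532), and passed the threshold only without the ChIP library of v134 (adjusted p = 0.00561). It was picked after its value was seen, since its window, with 64.2% GC the richest of all members, lay at percentile 98.6 after the GC trend was removed.

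With all 4 libraries and all promoters, none of the 11 IL-17 family members was called in either direction. Of all promoters 18.6% were above and 17.0% below input. The ratios of the 11 members ran from 0.0822 to 0.368. By edgeR 1 of them, Il25, had an unadjusted p under 0.05 (0.0358), and DESeq2 called none of the 5 to which it gave an adjusted p. Il17a and Il17f, the neighbouring cytokine genes of type 17 lymphocytes, were the highest, with ratios of 0.368 and 0.356. Their log2 ratios of 0.74 ± 0.06 and 0.77 ± 0.08 (SD, n = 2) hardly differed between experiments (adjusted p = 0.156 and 0.157). Il17a passed the threshold among promoters with 20 or more reads per input (adjusted p = 0.0327) and Il17f without the ChIP library of v102 (adjusted p = 0.0442). Il17rc, a chain of their receptor, had 10 and 0 ChIP reads against 36 and 40 input reads, so its value depended on the experiment, and it was called below input without the ChIP library of v102 (adjusted p = 0.000962). Its neighbour Il17re had 4 and 3 against 19 and 44 (0.111).

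**Figure D3:**
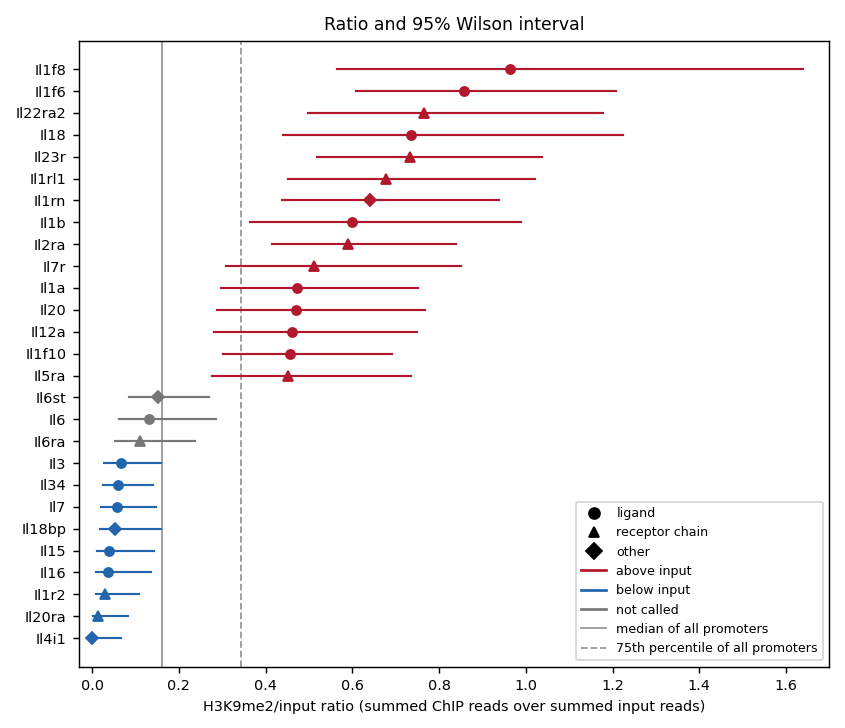
The x axis gives the deposited H3K9me2/input ratio and the bars its 95% Wilson interval, for every member called above (red) or below (blue) input and for Il6, Il6ra and Il6st (grey). Circles are ligands, triangles receptor chains and diamonds other members. Vertical lines are the median (0.162) and the 75th percentile (0.343) of all promoters, and all intervals of the red promoters lie above the former.

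The promoters called below input held 0 to 5 ChIP reads in all, so they are known less well than those above. Among ligands, Il16 had 1 and 1 ChIP reads against 25 and 30 input reads (ratio 0.0364, interval 0.00977 to 0.135). Il15, which sustains natural killer cells, had 1 and 1 against 19 and 33 (0.0385, interval 0.0103 to 0.143), and Il7, the lymphocyte survival factor, 3 and 1 against 25 and 46 (0.0563, interval 0.0214 to 0.148). Il34, a ligand of the CSF-1 receptor, had 3 and 2 against 22 and 63 (0.0588) in a window that overlaps another promoter's, and the haematopoietic cytokine Il3 had 1 and 4 against 32 and 44 (0.0658). Adjusted p ran from 0.0206 for Il16 to 0.0324 for Il3, and all 5 missed the threshold with the block, at 0.0564 to 0.0724.

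Of the other members, Il18bp, which neutralises IL-18, had 1 and 2 ChIP reads against 20 and 37 input reads (0.0526, interval 0.0175 to 0.159, adjusted p = 0.0439, and 0.0957 with the block). Il4i1 had 0 ChIP reads against 23 and 34 input reads, with a Wilson interval of up to 0.0674, or a limit of 0.0526 where 3 counts are taken as what a count of 0 allows. Its window overlaps those of 2 other genes. Il4ra, the shared IL-4 and IL-13 receptor chain, had 0 and 5 against 20 and 40 (0.0833, adjusted p = 0.121), and Il31ra had 1 and 4 against 30 and 38 (0.0735, adjusted p = 0.0604). By the mean log2 ratio these and Il17rc, which had reads in v102 alone, came next after Il20ra and Il1r2 among the receptor chains, and none of the 3 was called. For Il16, Il1r2, Il31ra and Il4i1 the RefSeq start nearest to the GENCODE one lies 10187 to 19901 bases from it, and which start the authors counted around is not known here. Of the 9 calls below, 3 were kept with the block, those of Il4i1, Il20ra and Il1r2.

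The log2 ratio at these promoters tended to fall with GC content. The 9 calls below input rest on few ChIP reads and 3 were kept with the block, so their split by GC is only described. Across the 82 members the log2 ratio and the GC content of the window had a Spearman rho of -0.46. It was -0.27 across the ligands and -0.46 across the receptor chains. The value was -0.55 across 22302 promoters with a window, which share the same libraries. Of 50 members with GC below the median of all promoters (50.9%), 14 (28.0%) were above input, compared with 31.0% of all promoters below it. Of 32 at or above it, 1 (3.13%) was above, compared with 4.15% of all. Members below input were 7 of the 50 (14.0%, compared with 8.59% of all) and 2 of the 32 (6.25%, compared with 26.5% of all).

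The classes differed in base composition. Ligand windows had a median GC of 47.4% and receptor chain windows of 51.6%. Of the 18 receptor chains below the median GC, 6 (33.3%) were above input and 2 (11.1%) below. The shares of all promoters there were 31.0% and 8.59%. None of the 21 at or above the median GC was called in either direction, beside 4.15% above and 26.5% below of all promoters. After the GC trend was removed, the ligand minus receptor difference of medians was 0.25, with 0.06 in v102 and 0.12 in v134. Il6, at 45.8% GC, moved from percentile 45.2 to 25.2. How far base composition of the reads contributes to these ratios was not tested.

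**Figure D4:**
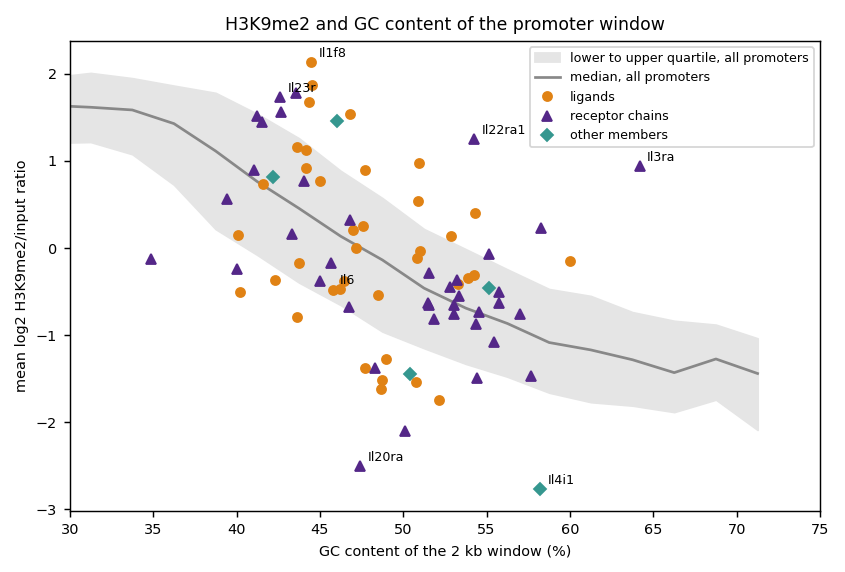
The x axis gives the GC content of the 2 kb window in percent and the y axis the mean log2 H3K9me2/input ratio of the 2 experiments, with circles for ligands, triangles for receptor chains and diamonds for other members. The line and band are the median and the lower to upper quartile of all promoters in bins of GC content. Il1f8 and Il23r lie above the band and Il6 within it, while Il20ra and Il4i1 lie below and Il22ra1 and Il3ra above it.

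Genes that carry interleukin signals inside the cell lay low among all promoters. Of 28 genes of the JAK, STAT, MyD88, IRAK and SOCS groups, none was above and 10 were below input, beside 18.6% and 17.0% of all promoters. With the block none was above and 5 were below, beside 15.8% and 8.30%. The median log2 ratio was -1.24, at percentile 22.8. Without ChIP reads were Stat5b, Socs2, Socs3 and Cish, feedback regulators and a STAT factor, and Tab2, an adaptor of the IL-1 pathway. Myd88, the adaptor of IL-1 receptors, had 0 and 2 ChIP reads against 22 and 36 input reads (0.0345, adjusted p = 0.0163), and Jak2 1 and 0 against 18 and 27 (0.0222, adjusted p = 0.0183), and both calls were lost with the block. Stat3, the main effector of IL-6, had 2 and 1 against 20 and 32 (0.0577, adjusted p = 0.0659) and was not called. The windows of the 28 genes had a median GC of 54.7%. Of all promoters at or above the median GC, 4.15% were above and 26.5% below input. A test of the difference between the lists was not made.

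Of 14 related cytokines and receptors without an Il symbol, 1 was above and 3 below input, beside 18.6% and 17.0% of all promoters. With the block 1 was above and 2 below, beside 15.8% and 8.30%. The median log2 ratio was -0.56. The one above was Csf2ra, the GM-CSF receptor chain, with 14 and 17 ChIP reads against 13 and 28 input reads (0.756, adjusted p = 0.000235). Below were Lifr, Ebi3 and Lif, of which Lif and Lifr are a ligand and receptor of the IL-6 family.

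**Figure D5:**
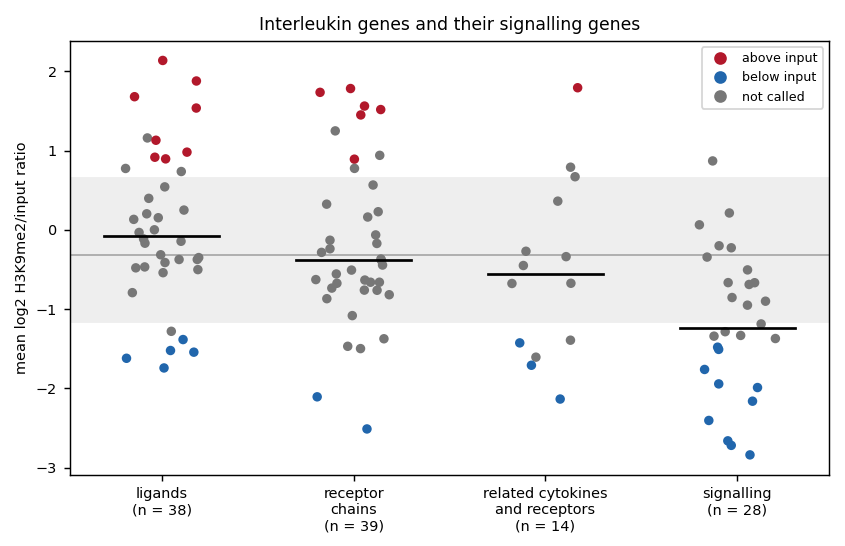
The y axis gives the mean log2 H3K9me2/input ratio of the 2 experiments for each promoter, and points are spread sideways for clarity. Black bars are medians, from left to right -0.07, -0.38, -0.56 and -1.24, and the grey line and band are the median and the lower to upper quartile of all promoters. Red points (above input) occur among ligands, receptor chains and related genes and not among signalling genes.

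Markers of cell types were read at the same promoters. Of 10 contractile smooth muscle genes 5 were below input and 1, Smtn, above, beside 17.0% and 18.6% of all promoters. With the block 1 stayed below, Myh11, which had 0 ChIP reads, and Smtn stayed above. Acta2 was not called at 0.0833, and the contractile ratios ran from 0 to 0.613. Of 5 leukocyte markers, 2 were above, Ptprc and Itgam, and none below (ratios from 0.0690 to 0.730), and with the block 2 were above. Of 5 endothelial markers none was above and 1 below (0.0303 to 0.393), and of 3 adventitial fibroblast markers none was above and 1 below (0.0217 to 0.175), and with the block both calls below were lost. ChIP reads carry no label of their cell of origin, and the part of other cell types in the interleukin ratios was not tested.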

How the data were processed

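H3K9me2 ChIP and input libraries of 2 experiments were compared. The authors trimmed reads (Trim Galore 0.4.2 and cutadapt 1.9.1 per the labels), aligned them to GRCm38 with Bowtie2 2.2.7 and counted reads within 1 kb of each start site with SeqMonk. Their deposited values are raw counts per library, the sums over experiments, and an unscaled ratio of the ChIP sum to the input sum. Promoters with few input reads were left out by the authors. The annotation release and the treatment of duplicates are not given in the sources used here.

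From these counts, log2 ratios (pseudocount 1 read, scaled to totals over all 26354 promoters) and Wilson intervals were computed, and the interval of the ligand to receptor ratio came from the log-scale standard error of the 4 sums. Totals over promoters are not library depths. ChIP was tested against input by edgeR 4.0.16 (R 4.3.3) with TMM, the quasi-likelihood test and Benjamini-Hochberg adjustment over all promoters. The script was tested on simulated counts. DESeq2 1.42.0, library totals, at least 20 reads in each input, a replicate block, each library left out, pseudocounts of 5 and 0.5, a GC trend (lowess, fraction 0.3) and other classes were alternatives. Where nothing says that experiments used separate animals, p-values measure the spread between these libraries.

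Pairing by experiment number comes from the study, which describes each ChIP with its own input. The v102 minus v134 differences of ChIP and input had a correlation of 0.084 across promoters. GENCODE windows served for position and GC content, with 79 members matched by symbol and 3 by RefSeq synonym (Il28a, Il28b, Il28ra). The authors' start sites may differ. Of several RefSeq starts the one nearest the GENCODE start was taken. Windows of 8 members overlap another promoter's. Clusters join members with start sites at most 500 kb apart.

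The members and lists were chosen with earlier results of these data known. One gene of the list of related cytokines and receptors is not reported here. Named genes were Il6, its receptor chains, the IL-1 genes, all members above input, the 5 lowest of each class and the clusters described. Python 3.11.15, pandas 2.3.3, scipy 1.17.1 and statsmodels 0.14.6 were used.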

Additional observations from a re-analysis of the deposited data

How the results depend on the processing

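Ligand promoters above input numbered 8, and 4 with library totals, 3 by DESeq2, 4 among the 18 with 20 or more reads per input, and 2 to 8 with single libraries left out. Ligand promoters below input numbered 5, and 0 by DESeq2, 0 with 20 or more reads per input, 0 with the replicate block, and 0 to 4 with single libraries left out. Receptor promoters above input numbered 6, and 3 of 17 with 20 or more reads per input and 4 to 6 with single libraries left out. Receptor promoters below input numbered 2, and 0 by DESeq2, 1 with 20 or more reads per input and 0 to 3 with single libraries left out. DESeq2 left the adjusted p undefined at 53 of 82 members, and the minimum of 20 tests 39 members. Over all 26354 promoters, calls above and below numbered 4902 and 4484, and 3058 and 27 by DESeq2, with 17883 undefined. They numbered 4303 and 5677 with library totals, and 4173 and 2187 with the block. With 20 or more reads per input they numbered 2446 and 1678 of 13993. The other causes were not tested.

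The replicate block, paired by experiment, changed the calls above from 15 to 11 (lost were Il12a, Il20, Il5ra and Il7r) and those below from 9 to 3. For Il6 the paired value was -0.65, the same as without it, and Il6 was not called with library totals, with the block or with any library left out. DESeq2 left its adjusted p undefined, and it has 19 input reads in v102, so the minimum of 20 leaves it out.

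The ligand minus receptor median log2 ratio was 0.31, and 0.15 with a pseudocount of 5 reads, 0.25 after the GC trend, 0.052 with 20 or more reads per input, 0.25 with classes by symbol alone, and 0.19 to 0.21 with 1 experiment left out. Chosen after seeing the data, it was 0.38 without overlapping windows and 0.29 without the IL-1 family. The ligand to receptor pooled ratio was 1.07, and 0.939 with 20 or more reads per input, 0.968 with classes by symbol alone, 1.09 without overlapping windows, 0.764 without the IL-1 family and 1.07 with either experiment left out.

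Of the single promoters named, log2 fold changes turned sign only at uncalled ones. With library totals Il10 turned to -0.096 and Il24 to -0.078, and with 20 or more reads per input Il5 to 0.14. With single libraries left out, the values ran from -0.24 to 0.62 for Il10, from -0.36 to 0.43 for Il24, from -7.85 to 0.57 for Il17rc (0 ChIP reads in v134), from -1.25 to 0.34 for Il19, from -0.54 to 1.14 for Il28a and from -0.73 to 1.10 for Il4. Of the other values of single promoters, 272 kept direction and side of the threshold, 74 lost and 7 gained a call. The cause was not tested.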
